A study of Mus musculus with 2 samples.

Results

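In spleen T cells, 10 genes of 3 protein families were followed: the annexin genes Anxa1, Anxa2, Anxa5 and Anxa6, the galectin genes Lgals1 and Lgals3, and the S100 genes S100a4, S100a6, S100a10 and S100a11. They were chosen by name, after levels by library and by cell state in these data had been seen, from 22686 genes listed in either library. All 10 were listed in both libraries. The genotype contrast, the contrasts between cell states and the correlations below were therefore used in the choice, and their values are given as a description.

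The cells came from spleens of mice aged 8 to 9 weeks and were sorted as CD3+CD5+ before capture on the BD Rhapsody system, which counts single molecules of RNA with unique molecular identifiers (UMIs). One library was from LatY136F mice, which carry a point mutation in the T cell adaptor LAT that removes its docking tyrosine for phospholipase C gamma and are known for a T helper 2-type lymphoproliferation. The other was from LatY136F CD45-KO mice, which carry the same Lat mutation and also lack CD45, the transmembrane phosphatase made from Ptprc that acts on the kinases Lck and Fyn. Both groups thus share the Lat mutation, and mice with normal Lat are not part of the comparison. With 1 library per genotype, the genotype, the animals and the capture cannot be told apart, and differences carry neither a test nor a p-value. The 95% intervals given are exact and speak for counting error alone.

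The 13714 LatY136F T cells held 35113165 UMIs with a median of 2154 per cell, and the 12723 CD45-KO T cells held 28528140 UMIs with a median of 1986. A UMI of the T cell list (Cd3d, Cd3e, Cd3g, Cd247, Trac, Trbc1, Trbc2, Cd5, Cd4, Cd2, Cd28) was present in 99.99% of these cells in each library. Ptprc itself stood at 1760 and 1181 CPM (UMIs of a gene relative to all UMIs of the same cells), but the sources used here do not give the position of the deletion, so this count is no check of the label. B-lineage, plasma cell and myeloid cells, 33 in the LatY136F and 111 in the CD45-KO library, were set apart. In the remaining T cells the 10 genes of the myeloid list summed to 6.92 and 8.66 CPM, the 9 of the B-lineage list to 4.39 and 5.33 CPM and the 4 of the plasma cell list to 0.854 and 1.26 CPM, with the complement gene C1qa at 0 in both libraries. The libraries shared 223 cell barcodes.

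Annexins bind phospholipid membranes when calcium rises. S100 proteins are small EF-hand calcium sensors that act by binding other proteins, and S100A10 forms a complex with annexin A2 that links membrane to the cortical actin cytoskeleton. Galectins bind beta-galactoside sugars on glycoproteins, CD45 among them, and galectin-1 and galectin-3 are known for their effects on T cell survival and receptor clustering. Several of these genes are widely used as markers of antigen-experienced T cells.

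The upstream sequences of the 3 members that differed most between the libraries, Anxa2, Anxa1 and Lgals3, and of S100a11, whose level hardly differed, are shown so that the regulatory letters can be read beside the levels. Each is the 250 bases before the RefSeq start site (GRCm38.p6), 5′ to 3′ on the gene's strand. The Lgals3 window lies well inside its GENCODE M21 gene (47367751 to 47386160), whose annotated start is further upstream. The Anxa1 window also lies inside its gene (20373428 to 20390944), near the start. The end of the Anxa2 window lies inside its gene (69453620 to 69491795). That end holds its TATAAA and the GGGCGG matches beginning 48 and 24 bases before the RefSeq start. The last few bases of the S100a11 window, without a match, also lie inside its gene (93520488 to 93526287). Capitals mark matches on either strand to TGANTCA (the AP-1 element), GGGCGG (the box bound by SP and KLF factors) and TATAAA (the TATA box).

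Anxa2, chr9:69453433-69453682, plus strand: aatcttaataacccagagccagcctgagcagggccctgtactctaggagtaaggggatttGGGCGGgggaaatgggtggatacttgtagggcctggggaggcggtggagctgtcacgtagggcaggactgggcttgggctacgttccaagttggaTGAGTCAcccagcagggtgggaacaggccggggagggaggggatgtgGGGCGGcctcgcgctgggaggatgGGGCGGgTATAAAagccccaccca

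Anxa1, chr19:20390672-20390921, minus strand: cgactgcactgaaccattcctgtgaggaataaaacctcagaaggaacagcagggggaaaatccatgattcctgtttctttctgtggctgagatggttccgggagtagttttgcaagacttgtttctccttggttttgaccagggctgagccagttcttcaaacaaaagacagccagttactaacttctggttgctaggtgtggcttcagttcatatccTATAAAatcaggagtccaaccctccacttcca

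Lgals3, chr14:47373610-47373859, plus strand: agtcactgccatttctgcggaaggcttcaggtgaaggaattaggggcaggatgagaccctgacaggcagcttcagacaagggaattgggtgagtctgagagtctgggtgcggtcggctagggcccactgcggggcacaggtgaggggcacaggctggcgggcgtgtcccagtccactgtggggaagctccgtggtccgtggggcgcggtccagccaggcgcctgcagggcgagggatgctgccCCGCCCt

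S100a11, chr3:93520246-93520495, plus strand: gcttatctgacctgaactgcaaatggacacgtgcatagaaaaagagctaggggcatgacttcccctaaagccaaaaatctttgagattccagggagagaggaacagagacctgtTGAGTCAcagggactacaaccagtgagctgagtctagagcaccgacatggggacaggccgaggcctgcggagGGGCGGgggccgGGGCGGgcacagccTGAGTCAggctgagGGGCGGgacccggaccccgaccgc

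RefSeq windows of 300 bases, from 250 before to 50 after the start, were matched for 7 of the 10 genes (Anxa1, Anxa2, Anxa5, Lgals3, S100a4, S100a6, S100a11). Anxa2 had 1 AP-1 match, beginning 95 bases before the start, and S100a11 had 2, beginning 136 and 38 bases before it; 2 of 7 members and 7.81% of all 32851 windows held this motif. TATAAA was in the windows of Anxa1, Anxa2 and S100a4, 3 of 7 against 13.6% of all windows, and GGGCGG in those of Anxa2, Lgals3 and S100a11, 3 of 7 against 35.7%. The letters TTCNNNGAA (a STAT element) and CCGGAAG (an ETS element) were in no member's window and in 8.30% and 8.86% of all. Motifs were searched on both strands, and no 2 of them share letters in the sequences shown. AP-1 letters were thus upstream both of the member with the largest difference between the libraries and of the member with the smallest. A match describes the letters alone.

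Of the 4 annexin genes, Anxa2 and Anxa1 had lower levels in CD45-KO cells and the other two were close to the LatY136F level. Anxa2, the partner of S100a10, counted 16111 UMIs in LatY136F T cells and 4263 in CD45-KO T cells, or 459 CPM (452 to 466) and 149 CPM (145 to 154). Its log2 ratio of CD45-KO over LatY136F was -1.62 (-1.67 to -1.57), the lowest of the 10. Anxa1, known as a mediator of glucocorticoid action on leukocytes, stood at 38.3 CPM (36.3 to 40.4) and 17.8 CPM (16.3 to 19.4), a log2 ratio of -1.11 (-1.26 to -0.96). Anxa5, whose protein binds phosphatidylserine exposed on dying cells, stood at 138 and 130 CPM with a log2 ratio of -0.08 (-0.14 to -0.02). Anxa6, a large annexin with a duplicated core, stood at 1257 and 1137 CPM with a log2 ratio of -0.14 (-0.16 to -0.12).

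Both galectin genes had lower levels in CD45-KO cells, Lgals3 by more than Lgals1. Lgals3, which encodes the chimeric galectin that forms lattices on cell surfaces, counted 12242 and 4715 UMIs, or 349 CPM (342 to 355) and 165 CPM (161 to 170), a log2 ratio of -1.08 (-1.13 to -1.03). Lgals1, which encodes the dimeric galectin, stood at 1530 CPM (1517 to 1543) and 1171 CPM (1158 to 1183), a log2 ratio of -0.39 (-0.41 to -0.37).

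None of the 4 S100 genes differed by 1.5-fold. S100a4, known for binding non-muscle myosin, stood at 243 CPM (238 to 248) and 176 CPM (171 to 181), a log2 ratio of -0.46 (-0.51 to -0.41). S100a6 (calcyclin) stood at 2952 CPM (2934 to 2970) and 2331 CPM (2313 to 2349), a log2 ratio of -0.34 (-0.35 to -0.33). S100a10 stood at 1022 and 871 CPM, a log2 ratio of -0.23 (-0.25 to -0.21). S100a11 stood at 1288 and 1297 CPM, a log2 ratio of 0.01 (-0.01 to 0.03) that was below 0 under 4 of 11 other settings. The 2 partners of the annexin A2 complex were thus not lower by the same amount: Anxa2 was 3.07-fold lower in CD45-KO and S100a10 1.17-fold lower.

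With a 1.5-fold difference taken as the mark, 3 of the 10 genes (Anxa1, Anxa2, Lgals3) were lower in CD45-KO cells and 0 were higher. Among the 6666 genes that reached 20 CPM in either library, 3.78% were lower and 1.86% higher by that fold. The same 3 were also past a 2-fold difference, as were 1.46% of all genes, and 9 of 10 were lower at all, as were 48% of all genes. The members' median log2 ratio was -0.36, and that of the 6666 genes was 0.01, with their central 90% between -0.51 and 0.41. These counts were known when the genes were chosen, so nothing is read from them about the families.

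**Figure D1:**
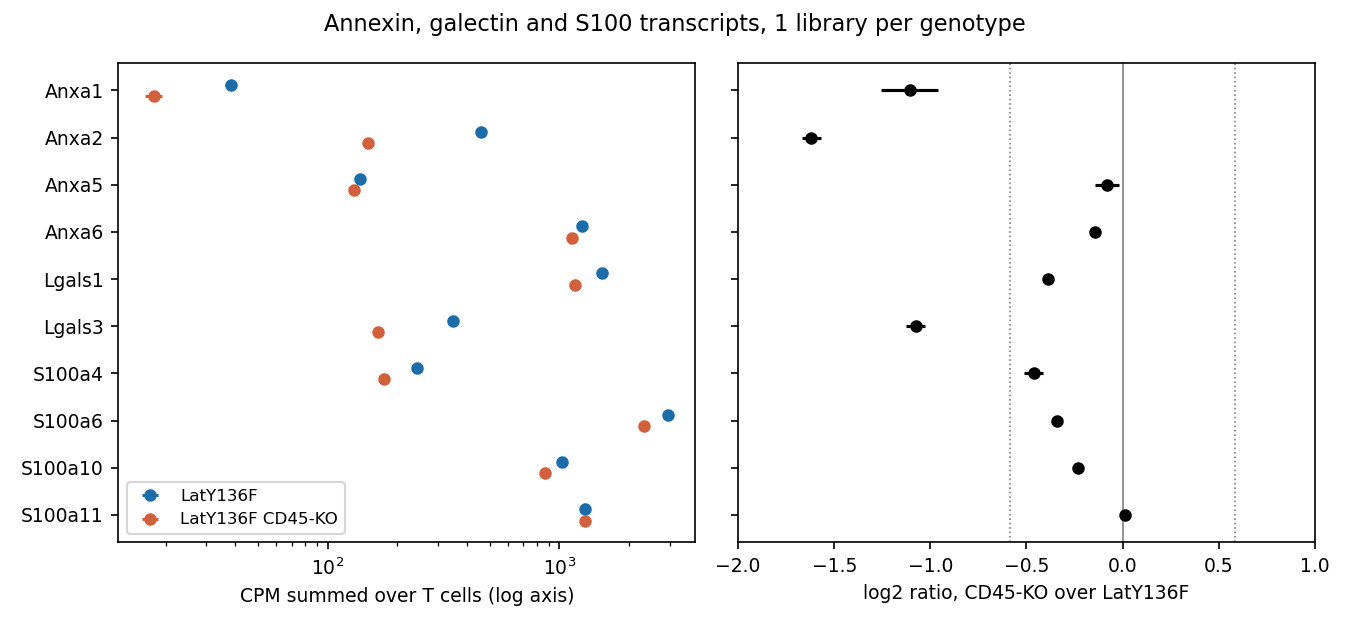
Levels of the 10 genes in T cells of each library in CPM (left, log axis) and the log2 ratio of CD45-KO over LatY136F (right); bars are exact 95% counting intervals and dotted lines mark 1.5-fold. Anxa2, Anxa1 and Lgals3 lie left of the lower dotted line at -1.62, -1.11 and -1.08, and S100a11 lies at 0.01.

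The differences also appeared as shares of cells with a UMI once each cell was thinned to 1000 UMIs (13282 and 12366 cells, after 432 and 357 shallower cells were left out). Anxa2 was found in 27.2% of LatY136F cells (26.4 to 27.9) and in 10.4% of CD45-KO cells (9.87 to 10.96). Lgals3 was found in 22.4% and 11.7%, and Anxa1 in 3.35% and 1.65%. Without thinning, these shares were 45.5% and 19.1% for Anxa2, 36.3% and 18.6% for Lgals3, and 7.38% and 3.25% for Anxa1. Cells with a UMI of Anxa2 held 1.37 UMIs on average in LatY136F and 1.22 in CD45-KO. At so few UMIs per cell, this average falls along with the mean over all cells (0.373 and 0.127), so it is no separate observation.

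The other 7 genes had closer shares at equal depth. They were 12.6% and 11.7% for Anxa5, 69.7% and 65.4% for Anxa6, 66.2% and 59.1% for Lgals1, and 19.1% and 14.3% for S100a4. S100a6 was found in 88.7% of LatY136F and 83.5% of CD45-KO cells, and the share with at least 5 UMIs was 23.1% and 13.3%. S100a10 had 59.8% and 55.4%, and S100a11 68.8% and 68.5%. Cells of the B-lineage gate were thinned in the same way (10 LatY136F and 35 CD45-KO cells, with medians of 6279 and 7271 UMIs before thinning). They held Anxa2 in 1 and 3 cells, Lgals3 and Anxa1 in 0 and 0, and S100a4 in 0 and 1. No doublet caller was run, and these cells may transcribe members themselves, so their shares do not measure free RNA. At 0 of 35 cells, the exact upper limit for a cell share is 10.003%, and for 0 of 10 it is 30.8%. The 10.4% share of Anxa2 in CD45-KO T cells lies inside the interval of the CD45-KO B-lineage cells (1.80% to 23.1%), as do the CD45-KO T cell shares of Anxa1, Anxa5 and S100a4 with theirs (4 of 10 genes). Against the 10 LatY136F B-lineage cells, the T cell shares of 8 of 10 genes lie inside, all but Anxa6 and S100a6. For genes whose T cell share lies inside, the shares do not separate low expression from free RNA at this depth. In CD45-KO the T cell shares of the other members lie above the B-lineage intervals, Lgals3 narrowly (11.7% against an upper limit of 10.003%). The amount of free RNA was not tested for any member. Lgals1, S100a6, S100a10 and S100a11 were in 22.9% to 34.3% of CD45-KO B-lineage cells, below their shares in T cells.

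The cells of the myeloid gate (20 and 72 cells that met no B-lineage gate) held more of several members than the T cells. Lgals3 stood at 1022 and 916 CPM there, S100a4 at 570 and 580 CPM, and Anxa1 at 312 and 103 CPM. A stricter removal of cells with any B-lineage or myeloid UMI gave T cell log2 ratios of -1.09 for Lgals3, -1.10 for Anxa1 and -1.61 for Anxa2. The T cell differences were as large without those cells.

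The position of the members among T cell states was followed with gates on transcripts, each set by genes that are not members. The gates overlap, and gated cells often had more UMIs than other cells. The cycling gate asked for at least 5 UMIs over 3 or more cell cycle genes, and held 9.86% of LatY136F and 3.16% of CD45-KO T cells (medians of 4666 and 4844 UMIs, against 2058 and 1961 in the other T cells). The follicular helper (Tfh) gate asked for 2 or more of Cxcr5, Bcl6, Il21, Tox2, Sostdc1, Izumo1r, Ascl2 and Angptl2, and held 3.45% of each (medians of 3696 and 3337 UMIs, against 2127 and 1963). The interferon gate asked for 4 or more interferon-stimulated genes, the naive gate for 2 or more genes of a list of naive T cell genes that includes Satb1, the cytotoxic gate for 2 or more of its genes and the signal gate for 3 or more early receptor-induced genes. Single-gene gates asked for 1 UMI of Il4, Il6, Il1rl1, Klrg1, Trdc, Ikzf2 or Il2ra (the last 2 without Foxp3), or 2 UMIs of Gzmb. The largest gate asked for 1 UMI of Cd4 without Cd8a or Cd8b1, and held 66.3% of LatY136F and 66.0% of CD45-KO T cells. Of 18 gates, 15 had at least 50 cells in both libraries. Levels in cycling and Il2ra cells are also given at equal depth, but these cells were still gated at full depth. Only the naive gate was also applied to thinned cells. For every gate but the naive one, the part of depth in which cells entered the gate was not tested.

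In both libraries Anxa2 was highest in cycling cells. It stood at 816 CPM in the LatY136F cycling gate and 361 CPM in the other LatY136F T cells, and at 379 and 129 CPM in CD45-KO cells, with log2 ratios of 1.18 and 1.56. It was the only 1 of the 10 genes at least 1.5-fold higher in cycling cells of both libraries, a mark reached by 8.51% of the 6666 genes; 0 members were lower by that fold, against 10.3%. Lgals1 was next, at 2008 CPM in cycling and 1399 CPM in other LatY136F cells and 1678 and 1125 CPM in CD45-KO cells (0.52 and 0.58). S100a4 was lower in cycling cells in LatY136F by more than 1.5-fold, 162 against 265 CPM (-0.71), and stood at 159 against 178 CPM in CD45-KO (-0.16). S100a6 was also lower in cycling cells (-0.48 and -0.44), as was S100a11 (-0.28 and -0.30), whereas S100a10 was level (-0.01 and -0.11).

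Cells with a UMI of Il2ra, the high-affinity interleukin 2 receptor chain of activated T cells, and none of Foxp3 also held more Anxa2. Their level was 717 CPM against 422 CPM in other LatY136F cells and 280 against 143 CPM in other CD45-KO cells. Anxa1 (55.7 against 35.8 CPM, and 27.6 against 17.3 CPM) was also past 1.5-fold there in both libraries, so 2 members were higher in this gate, against 5.19% of all genes. Lgals1 just passed 1.5-fold in LatY136F (log2 ratio 0.60) and fell just short in CD45-KO (0.56). At 1000 UMIs per cell, Anxa2 stood at 803 CPM in cycling cells with Il2ra, 748 CPM in cycling cells without it, 517 CPM in other cells with Il2ra and 320 CPM in cells of neither kind in the LatY136F library. The same 4 values were 408, 384, 139 and 118 CPM in the CD45-KO library, where cycling cells with Il2ra numbered 71. Anxa2 was thus high in cycling cells with and without an Il2ra UMI. This split by Il2ra did not leave out cells with Foxp3.

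The Tfh gate was the state in which most members were low. Lgals3 stood at 143 CPM in it and 363 CPM in other LatY136F cells, and at 45.4 and 173 CPM in CD45-KO cells, with log2 ratios of -1.34 and -1.93. Anxa6 stood at 703 and 1295 CPM, and at 461 and 1182 CPM (-0.88 and -1.36). S100a6 stood at 1801 and 3031 CPM, and at 1436 and 2390 CPM (-0.75 and -0.73). Anxa1 had 39 UMIs in the LatY136F gate and 6 in the CD45-KO gate, or 17.1 and 3.40 CPM, against 39.8 and 18.7 CPM in the other cells. These 4 of 10 were at least 1.5-fold lower in both libraries, against 6.69% of all genes, and 0 were higher, against 5.58%. Anxa2 (-0.06 and 0.06) and Anxa5 (-0.08 and -0.16) were near the level of the other cells, and S100a11 was slightly above it (0.10 and 0.14).

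Other gates moved single members. Lgals3 was lower in cells with Ikzf2 (the Helios gene) and no Foxp3, at 209 against 355 CPM in LatY136F and 84.7 against 176 CPM in CD45-KO, the only member past 1.5-fold there, against 0.72% of all genes. Anxa1 was higher in cells with Klrg1, a receptor of terminally differentiated effector cells, at 55.3 against 36.1 CPM and 26.2 against 16.1 CPM, the only member past 1.5-fold, against 0.12% of all genes. Lgals3 had its highest level of the 15 gates in the cytotoxic gate of both libraries, 496 CPM (425 to 577) and 241 CPM (204 to 284), from 108 and 178 cells. In CD45-KO this interval overlapped that of the next gate, Gzmb (221 CPM, 180 to 269). In cells with Il1rl1, the receptor of interleukin 33 and 57.0% and 60.9% of the T cells, Anxa2 was below the other cells (395 against 543 CPM, and 122 against 193 CPM) and Lgals3 above them (368 against 323 CPM, and 180 against 142 CPM).

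The naive gate, 18.7% of LatY136F and 24.7% of CD45-KO T cells, held few genes of any kind at a 1.5-fold lower level. None of the 10 was 1.5-fold lower in it in both libraries, against 0.09% of all genes, so nothing is read from this count about the members. None was when the gate was applied to cells thinned to 1000 UMIs. Anxa2 was slightly higher in the gated cells, 536 against 435 CPM in LatY136F and 171 against 140 CPM in CD45-KO, as was Lgals3. Most gated cells met the gate through Satb1: without it (an alternative chosen after seeing the data) 3.29% and 6.02% of T cells were left, and Anxa1 then passed, at 20.5 against 39.3 CPM and 8.21 against 18.6 CPM, so 1 of 10 members was lower against 0.3% of all genes. With 3 or more naive genes asked for, Anxa1 again passed alone, against 0.45% of all genes. In the gate without Satb1, S100a6 and S100a4 were lower in LatY136F cells (-0.49 and -0.59) and closer to the other cells in CD45-KO (-0.14 and -0.10), and Anxa2 was still higher (0.37 and 0.53).

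**Figure D2:**
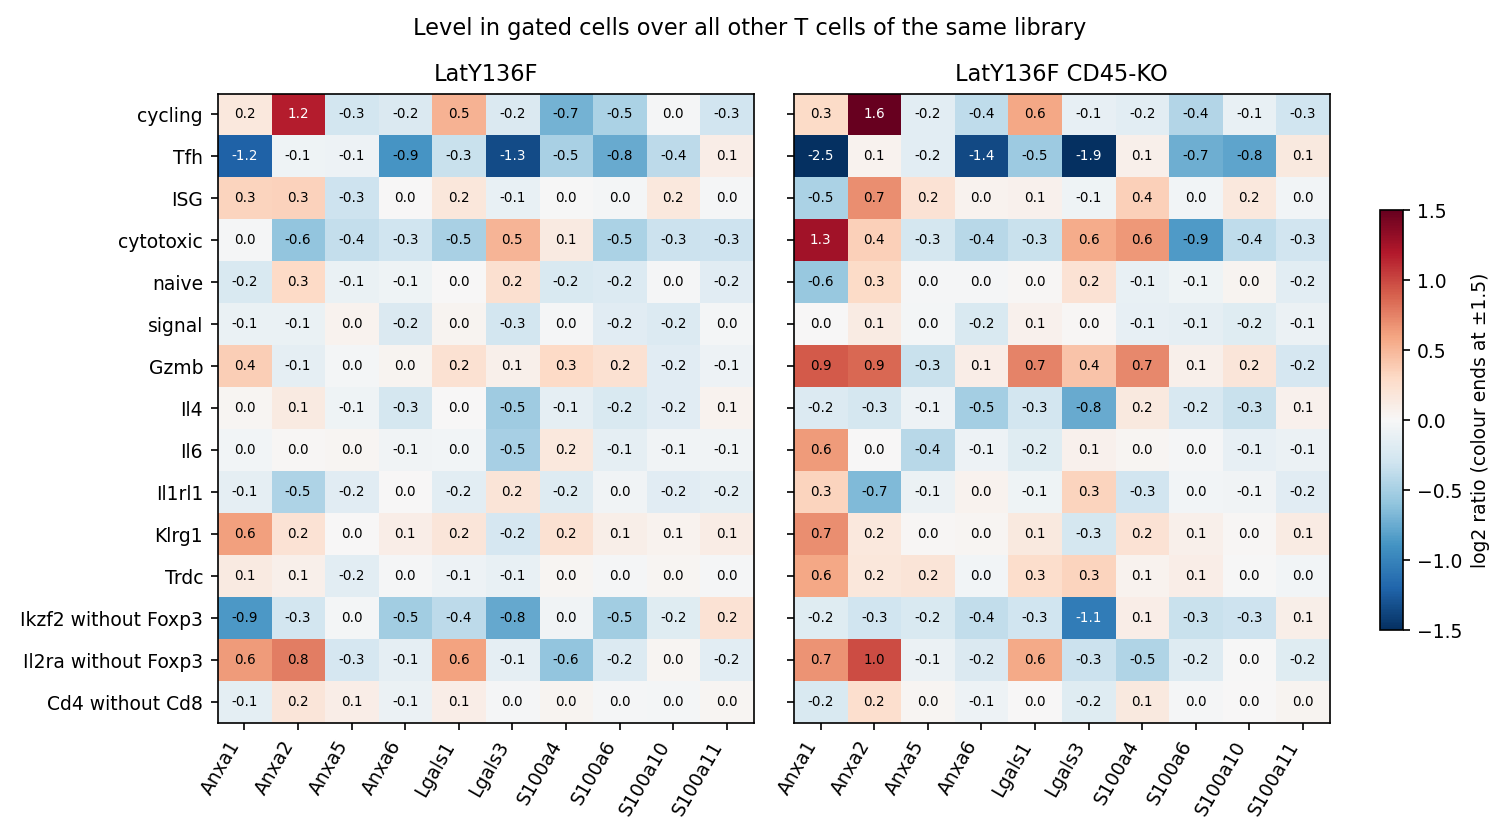
Log2 ratio of each gene's level in gated cells over all other T cells of the same library, for 15 overlapping transcript gates (rows) and 10 genes (columns); red is higher in the gate and blue lower, and colour ends at 1.5 in either direction. Anxa2 is red in the cycling row of both libraries, and Lgals3, Anxa1, Anxa6 and S100a6 are blue in the Tfh row.

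Ordered by Anxa2 level, the LatY136F gates ran from cycling (816 CPM, 796 to 837) and Il2ra (717 CPM, 692 to 743) down to Ikzf2 (383 CPM, 353 to 414) and cytotoxic (307 CPM, 251 to 371). The CD45-KO gates ran from cycling (379 CPM, 354 to 405) and Il2ra (280 CPM, 253 to 309) down to Ikzf2 (124 CPM, 113 to 137) and Il1rl1 (122 CPM, 117 to 127). Of the 14 steps between neighbouring gates, 2 in LatY136F (after cycling and after Il2ra) and 1 in CD45-KO (after cycling) had intervals that did not overlap. For Lgals3, the order ran from cytotoxic to Tfh in both libraries, with Ikzf2 and then Il4 next above Tfh. The step from Ikzf2 to Tfh had separate intervals in both. For Anxa1 and Anxa5, 0 of 14 steps had separate intervals in either library.

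The difference between the libraries was then taken inside each gate. The gates overlap, so counts of gates partly recount the same cells, and like counts over all genes are not given. The mix of cells within a gate can also still differ between the libraries. Anxa2 was at least 1.5-fold lower in CD45-KO cells in 15 of 15 gates, with log2 ratios from -1.98 (-2.19 to -1.78) in Il4 cells to -0.65 (-0.94 to -0.38) in Gzmb cells. Lgals3 was past the mark in 14 of 15, from -1.66 (-2.03 to -1.30) in the Tfh gate, and the exception was Il6 cells at -0.55 (-0.84 to -0.28). Anxa1 was past it in 11 of 15, with wide intervals in small gates, from -2.33 (-3.86 to -1.08) in the Tfh gate to 0.12 (-0.90 to 1.21) in the cytotoxic gate. Within cycling cells the log2 ratios were -1.11 (-1.21 to -1.01) for Anxa2 and -1.02 (-1.19 to -0.86) for Lgals3. With the mix of 6 exclusive classes held equal, Anxa2 stood at -1.44 and Lgals3 at -1.11.

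The ratios of the remaining members varied between gates. S100a6 was lower in CD45-KO in 15 of 15 gates, between -0.71 (cytotoxic) and -0.14 (Ikzf2), and S100a10 in 14 of 15, between -0.62 (Tfh) and 0.10 (Gzmb). Lgals1 lay between -0.65 (Il4) and 0.14 (Gzmb), Anxa6 between -0.61 (Tfh) and 0.03 (Ikzf2), and S100a4 between -0.57 (Il6) and 0.06 (Tfh). Anxa5 had the widest spread for its small overall ratio, from -0.51 (Il6) to 0.43 (interferon). S100a11 stayed between -0.17 (Gzmb) and 0.05 (Tfh), the narrowest range of the 10.

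**Figure D3:**
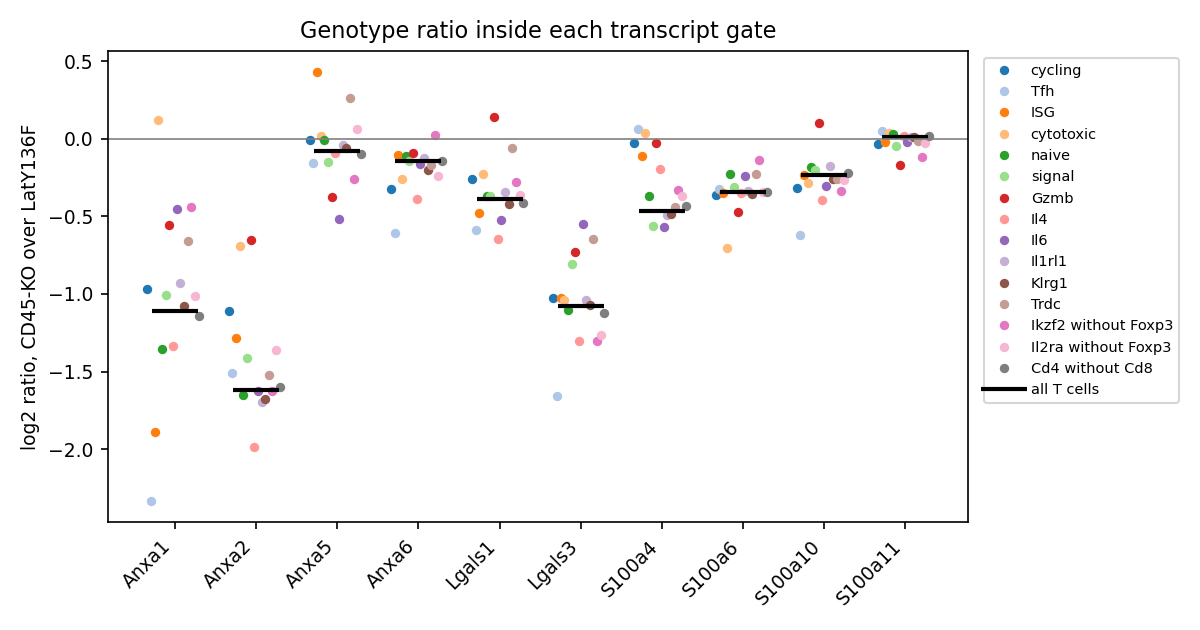
Log2 ratio of CD45-KO over LatY136F for each gene inside each of 15 transcript gates (coloured points) and in all T cells (black bars). All 15 points of Anxa2 and of Lgals3 lie below 0, at -0.65 or lower for Anxa2 and -0.55 or lower for Lgals3, and the points of S100a11 lie between -0.17 and 0.05.

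Summed over the 10 genes, the thinned LatY136F cells held a median of 9 UMIs per 1000 (10th to 90th percentile 4 to 15) and the CD45-KO cells 7 (3 to 13), means of 9.14 and 7.45. The share of cells with 15 or more was 12.001% and 5.15%, and 0.346% and 0.679% of cells held none. The 2 distributions overlapped over most of their range, each with 1 peak. S100a6 gave a mean of 3.03 UMIs per 1000 in LatY136F and 2.35 in CD45-KO, and Anxa2 gave 0.373 and 0.127. The sum therefore follows the abundant members most.

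From cell to cell, the members varied together only weakly. The median Pearson r of log(1 + UMI) over the 45 pairs of genes was 0.038 in each library. These correlations are over cells of 1 library at equal depth, share that library, and have no p. The highest was between Lgals1 and S100a6 (0.21 in LatY136F and 0.17 in CD45-KO), and S100a6 was found in 91.2% of LatY136F cells with Lgals1 and 83.7% of those without it. Anxa2 and Lgals1 followed (0.18 and 0.12), where 75.4% of LatY136F cells with an Anxa2 UMI held Lgals1 against 62.7% of the others. The annexin A2 partner pair, Anxa2 and S100a10, had 0.12 and 0.063. Lgals3 had an r near 0 with S100a4 (-0.005 and 0.001) and S100a11 (-0.011 and -0.004), and 0.034 and 0.064 with S100a6.

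Of the 45 pairs, 6 in LatY136F and 5 in CD45-KO had an r over 0.1. Of all 5393970 pairs of the 3285 genes with at least 50 CPM in both libraries, 0.00723% and 0.00321% did. Among the 61 genes with at least 1000 CPM, where detection limits r less, the shares were 1.86% and 1.42% of 1830 pairs. The size of r depends on depth: thinned to 2000 UMIs per cell, the members' median was 0.069 and 0.072.

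Each gene was also higher in cells with a higher sum of the other 9, by an amount that differed by gene. The share of all genes that rise with such a sum is not given, and correlations were known when the members were chosen. Nothing is therefore read from this about the families. Between cells with a low and a high sum, the mean of Anxa2 went from 0.236 to 0.511 UMIs per 1000 in LatY136F and from 0.0809 to 0.214 in CD45-KO. Lgals3 went from 0.297 to 0.368 and from 0.127 to 0.217. The log2 ratio of CD45-KO over LatY136F was also taken in 3 bins of the sum of the other 9 (cut at 6 and 9 UMIs for Anxa2). For Anxa2 it was -1.55 (-1.71 to -1.39) in the low bin, -1.45 in the middle and -1.25 (-1.38 to -1.13) in the high bin. The bins are wide, and the libraries filled them unequally (4397 LatY136F and 5711 CD45-KO cells low, 5156 and 3105 high). Sums within a bin can therefore still differ between the libraries. For Lgals3 the 3 values were -1.22, -0.98 and -0.76. For S100a11 they were 0.09, 0.07 and 0.06. The lower Anxa2 and Lgals3 of the CD45-KO library was thus present in cells with many and with few molecules of the other members, and smaller in those with many.

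**Figure D4:**
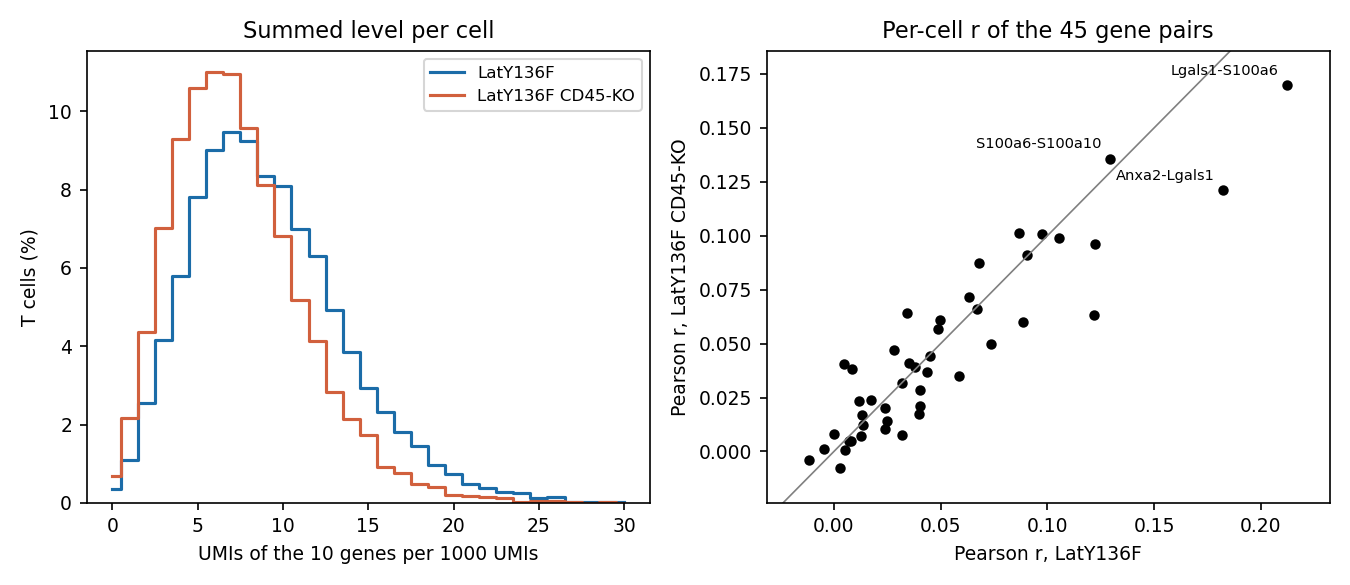
Left, share of T cells (%) by the summed UMIs of the 10 genes per 1000 UMIs, up to 30, in each library; right, per-cell Pearson r of the 45 gene pairs in LatY136F (x axis) and CD45-KO (y axis), with the line of equality. The CD45-KO curve is shifted to the left (medians 7 and 9), and Lgals1 with S100a6 is the highest pair in both libraries.

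Of 3276 other genes ranked by their per-cell r with the summed members, the most alike in both libraries was Vim (0.28 in LatY136F and 0.23 in CD45-KO), the intermediate filament gene. Then came Crip1 (0.18 and 0.18), Tagln2 (0.19 and 0.16), a gene for an actin-binding protein, the integrin chain gene Itgb1 (0.17 and 0.16), Myadm (0.19 and 0.15), Sh3bgrl3 (0.18 and 0.13), the actin gene Actg1 (0.14 and 0.11), Itgb7 (0.13 and 0.10), Lsp1 (0.14 and 0.10) and Emp3 (0.11 and 0.10). The median over all ranked genes was -0.001 and 0.001. At the other end were Tbc1d4 (-0.12 and -0.11), Bcl2 (-0.10 and -0.10), Odc1 (-0.07 and -0.08), Nrgn (-0.10 and -0.07) and Tcf7 (-0.09 and -0.07), which encodes the transcription factor TCF-1. The 10 genes most like the members did not share one genotype ratio: Vim stood at -0.49 and Actg1 at -0.62, whereas Itgb1 (0.10), Crip1 (0.09) and Itgb7 (0.02) were level.

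Among 17 genes of effector T cells and their cytoskeleton, 16 had at least 20 CPM, of which 1 was at least 1.5-fold lower in CD45-KO and 0 were higher (median log2 ratio -0.15). The shares over all 6666 genes of that level were 3.78% lower and 1.86% higher. The lower gene was Capg, which caps actin filaments, at 67.8 and 38.5 CPM (-0.82). Glipr2 stood at 197 and 137 CPM (-0.53), Vim at 2017 and 1436 CPM (-0.49), and Ahnak, whose large protein binds the annexin A2 and S100A10 complex, at 915 and 1214 CPM (0.41). The actin cross-linker gene Flna (-0.31), the hyaluronan receptor gene Cd44 (-0.28), Esyt1 (-0.21) and Tmsb10 (-0.18) were closer to the LatY136F level. Of the transcripts for that complex, only Anxa2 differed by 1.5-fold between the libraries. S100a10 (-0.23) was lower and Ahnak higher in CD45-KO cells by less than that, and proteins were not measured.

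Of 20 genes for binding partners, receptors and the enzymes that build galectin ligands, 13 had at least 20 CPM, of which 1 was lower and 1 higher by 1.5-fold (median -0.13). Over all 6666 genes of that level, 3.78% were lower and 1.86% higher, so nothing is read from these counts. Gcnt1, the enzyme that branches core 2 O-glycans, was lower, at 45.5 and 25.3 CPM (-0.84). Mgat5, which makes the branched N-glycans that galectin-3 binds, was higher, at 35.5 and 56.3 CPM (0.67). Ptprc, whose product is itself a galectin ligand and is the gene targeted in the CD45-KO mice, was at -0.57, and Cacybp, which encodes the calcyclin-binding protein that S100A6 binds, at 0.37. Cd7, a galectin-1 receptor, was at -0.22, and the N-glycan enzyme genes Mgat1 and Man2a2 were at -0.23 and 0.17. The receptor genes for annexin A1, Fpr1 and Fpr2, had 0 and 1 UMI in LatY136F T cells and 0 and 0 in CD45-KO T cells.

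Other genes of the 3 families with at least 20 CPM were few. Of the annexins, Anxa11 stood at 260 and 178 CPM (-0.55) and Anxa7 at 77.2 and 70.8 CPM (-0.12). Of the galectins and their relatives, Lgals7 stood at 649 and 331 CPM (-0.97), Lgals9 at 161 and 119 CPM (-0.44), Lgals3bp, the gene of a galectin-3-binding glycoprotein, at 189 and 142 CPM (-0.42) and Lgals8 at 48.3 and 60.2 CPM (0.32). Lgals7 overlaps the gene Gm10648 on the other strand, which had 9 and 17 UMIs. S100a13 stood at 325 and 301 CPM (-0.11) and S100pbp at 36.6 and 41.5 CPM (0.18). The neutrophil genes S100a8 (17 and 0 UMIs) and S100a9 (39 and 1 UMIs) were near 0 in T cells of both libraries.

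On GRCm38 the 4 S100 members lie on chromosome 3 in 2 groups (GENCODE M21). S100a4 (90603771 to 90606045) and S100a6 (90612882 to 90624181) lie on the plus strand inside a cluster that runs from S100a1 to S100a9. S100a5 lies between them with 13 UMIs in LatY136F and 6 in CD45-KO T cells, and S100a3, next to S100a4, had 42 and 32. S100a11 (93520488 to 93526287) and S100a10 (93555080 to 93564643) are neighbours 28792 bases apart, separated from S100a9 by 2824766 bases. Neighbours did not share a ratio: S100a4 and S100a6 stood at -0.46 and -0.34, S100a10 and S100a11 at -0.23 and 0.01, and S100a13 at -0.11. The annexin and galectin members are dispersed: Anxa5 on chromosome 3 (36448923 to 36475894), Anxa2 on 9 (69453620 to 69491795), Anxa6 on 11 (54979108 to 55033445), Lgals3 on 14 (47367751 to 47386160), Lgals1 on 15 (78926725 to 78930465) and Anxa1 on 19 (20373428 to 20390944). The unnamed gene Gm42674 overlaps S100a4 on the same strand, and 1500015L24Rik and Gm16144 overlap Anxa1 and Anxa2 on the other strand; none of the 3 is listed among the genes analysed.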

How the data were processed

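The deposited tables give, for every cell and gene, the counts of distinct molecules (UMIs) that remained once the authors' pipeline had merged erroneous UMIs. These counts are not normalized. The pipeline was BD's whole transcriptome version 1.9.1 with GRCm38 and GENCODE M19, per the file headers. The design text names pipeline 2.0 and Seurat 4.04 and the submitters' processing notes GRCm39; these differ, and the headers were followed. The aligner and the number of mice per library are not stated there.

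Of 13775 and 12845 cells, those with at least 200 genes and at most 25% mitochondrial counts were kept (28 and 11 removed), and cells with 3 or more UMIs of a B-lineage, plasma cell or myeloid list were set apart. No doublet caller was run. Counts were summed per library and gate and given as CPM. Ratios have exact conditional binomial intervals, CPM exact Poisson intervals and shares Clopper-Pearson intervals, at 95%, which cover counting error only. Shares and correlations used cells thinned to 1000 UMIs. Interval code was tested on simulated data.

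The members, lists and gates were chosen with earlier results of these data known. All 10 members are named, with family genes of at least 20 CPM. From the partner and effector lists the 8 genes with the largest absolute ratio at 20 CPM or more are named. Genes below 20 CPM (S100a3, S100a5, S100a8, S100a9, Fpr1, Fpr2, C1qa) were named after their values were seen. The 10 most and 5 least alike genes were ranked by the weaker library. Not every gene of the naive gate's list is reported here. Alternatives changed cell filters, scaling, thinning, fold and gates. Python 3.11.15, numpy 2.4.6, scipy 1.17.1, pandas 2.3.3 and matplotlib 3.10.9 were used.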

Additional observations from a re-analysis of the deposited data

Results flagged for a closer look

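In 7 cases the intervals of a member lay on opposite sides of 0 in 2 sets of cells under the same contrast. The cases were picked from all 10 members in 15 overlapping gates. Both contrasts were searched, gate over other T cells and CD45-KO over LatY136F. The share of such cases over all genes is not given, so nothing is read from the number of cases. With 1 library per genotype the difference itself was not tested in any of them, and all are small gates or small ratios.

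Anxa2 accounts for 3 of them. In the cytotoxic gate its level over other T cells was -0.59 (-0.88 to -0.31) on the log2 scale in LatY136F (108 cells, 105 UMIs) and 0.36 (0.08 to 0.62) in CD45-KO (178 cells, 115 UMIs). In Gzmb cells it was -0.13 (-0.23 to -0.04) in LatY136F (791 cells) and 0.86 (0.59 to 1.12) in CD45-KO (120 cells, 121 UMIs). In Il4 cells it was 0.13 (0.06 to 0.21) in LatY136F and -0.26 (-0.45 to -0.07) in CD45-KO.

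Gzmb cells also set S100a10 and Lgals1 apart. S100a10 was at -0.17 (-0.23 to -0.10) over other T cells in LatY136F and at 0.18 (0.04 to 0.32) in CD45-KO. The log2 ratio of CD45-KO over LatY136F for Lgals1 was 0.14 (0.03 to 0.24) in Gzmb cells and -0.38 (-0.40 to -0.36) in the other T cells. Median depths in this gate were 2580 and 2708 UMIs per cell.

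In Trdc cells Lgals1 was at -0.071 (-0.13 to -0.01) over other T cells in LatY136F (570 cells) and at 0.26 (0.16 to 0.37) in CD45-KO (215 cells). For Anxa5, the log2 ratio of CD45-KO over LatY136F was 0.43 (0.10 to 0.76) in the interferon gate (173 and 140 UMIs) and -0.10 (-0.16 to -0.04) in the other T cells.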

How the results depend on the processing

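Under 11 other settings of cell filters, scaling, depth and cell mix, Anxa1, Anxa2 and Lgals3 each remained at least 1.5-fold lower in CD45-KO, with log2 ratios of -1.14 to -1.02, -1.65 to -1.44 and -1.11 to -0.995, and no other member passed that fold. S100a11 ranged from -0.02 to 0.08 and was below 0 in 4 of 11. The members' median ratio moved to -0.31 with at most 10% mitochondrial counts, to -0.32 with totals that leave out mitochondrial and ribosomal protein genes, and to -0.32 with each cell weighted equally. Size factors in place of totals shifted all ratios by 0.03. The share of all genes at least 1.5-fold lower was 17.8% when genes with at least 1 count entered. In the naive gate, 1 member (Anxa1) was 1.5-fold lower when 3 or more naive genes were asked for (0.45% of all genes), and 1 when Satb1 was left out (0.3%). The median pairwise r was 0.069 in LatY136F and 0.072 in CD45-KO at 2000 UMIs per cell. No paired analysis was possible because each genotype has 1 library. Depth limits Anxa1 most, with 6 UMIs in the CD45-KO Tfh gate; intervals in gates under 200 cells are wide.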
